A study of Homo sapiens with 9 samples.

Results

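GDF15 and the microRNA gene MIR3189, which lies in an intron of GDF15, were each read by 1 probe set of an Affymetrix expression array. They are 2 of the 14884 genes that the platform annotation names, and their probe sets (16859795 for GDF15, 16859800 for MIR3189) are the only ones with these symbols among 53617 on the array. The pair was chosen by its log2 intensities in the groups described here and by how far both genes agreed over them, so levels and differences are given as a description, with no test.

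The study used A549, an established human line from a lung adenocarcinoma, and read its RNA after 5 days of culture. Its 3 groups were cells on low-attachment plates given FP001, an additive known here only by that code, at 0.015% (w/v), cells on low-attachment plates without it, and cells on ordinary attachment plates without it. All cells were kept in DMEM with 10% fetal bovine serum, with water in place of FP001 where none was given. Each group had 3 arrays, and attachment replicate 1 was left out: it correlated with no other array (rank correlation at most −0.00191), whereas the remaining 8 correlated at 0.961 to 0.985 with each other. The values thus rest on 3, 3 and 2 arrays, of 1 cell line and 1 time. Whether replicates were separate cultures is not stated, so the p-values reflect array-to-array spread that may be technical.

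GDF15 encodes a secreted cytokine of the TGF-beta superfamily that many stressed cells release, and its circulating form acts on the receptor GFRAL in the hindbrain. In human cells its transcription is known to be raised by ATF4 and CHOP of the integrated stress response, and by factors such as EGR1. A microRNA gene in an intron is commonly transcribed with its host and cut from the unspliced RNA as a hairpin, whose arms become mature microRNAs that pair with messenger RNAs mainly through the seed, bases 2 to 8.

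The hairpin and both mature arms of MIR3189 are shown because they are the sequence that separates it from its host. In the RefSeq table (GRCh38.p14) the hairpin lies at chr19:18386562-18386634 on the plus strand, inside GDF15 and 404 bases after the start of the GDF15 transcript. Capitals mark the arms in the hairpin and the seed in each arm.
MIR3189 hairpin: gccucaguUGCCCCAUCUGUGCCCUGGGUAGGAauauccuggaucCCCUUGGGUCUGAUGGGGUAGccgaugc
hsa-miR-3189-5p: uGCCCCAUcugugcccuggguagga
hsa-miR-3189-3p: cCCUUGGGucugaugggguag
None of the other mature human microRNAs among the 2545 in that table had either seed (0 for the 5p arm and 0 for the 3p arm). An array probe set for a microRNA gene does not measure the mature microRNA. Whether this one read the hairpin, unspliced GDF15 RNA or both cannot be told apart with these files.

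GDF15 was bright in all 3 groups and took 3 separate levels. Its intensity was 751.9, 699.7 and 806.2 on the FP001 arrays, 436.0, 384.8 and 513.4 on the low-attachment arrays in normal medium, and 1141.8 and 929.4 on the attachment arrays. No 2 groups overlapped, with attachment plates highest, FP001 between and low attachment in normal medium lowest. The share of all genes whose groups did not overlap is not given, so lack of overlap is only a description here and below. The mean log2 intensity was 9.55 ± 0.10 with FP001 (SD, n = 3), 8.79 ± 0.21 on low attachment (n = 3) and 10.01 ± 0.21 on attachment plates (n = 2).

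MIR3189 was dimmer and took only 2 separate levels. Its intensity was 35.1, 41.1 and 49.2 on the FP001 arrays, 63.7, 36.9 and 58.9 on the low-attachment arrays in normal medium, and 208.3 and 236.3 on the attachment arrays. Both low-attachment groups lay far below the attachment arrays and overlapped each other. The mean log2 intensity was 5.37 ± 0.24 with FP001 (SD, n = 3), 5.69 ± 0.43 on low attachment (n = 3) and 7.79 ± 0.13 on attachment plates (n = 2). On low-attachment plates the probe set stood 1.48 to 2.65 times above the array's median, where 60.4% to 73.5% of all probe sets were dimmer, so its low values lay closer to the dim end of the scale than those of GDF15.

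**Figure D1:**
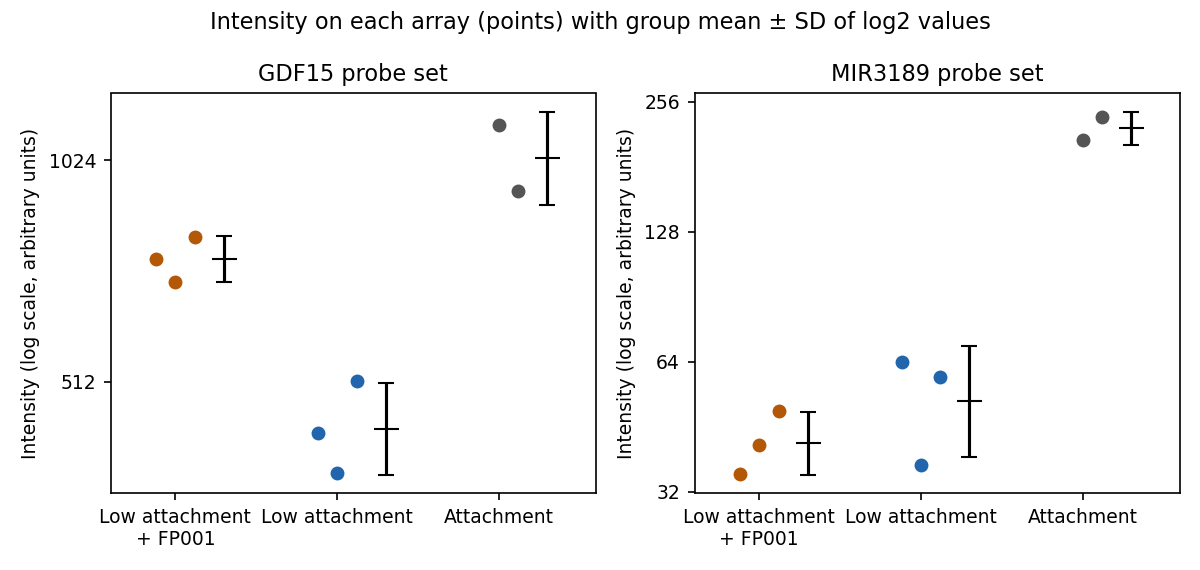
Intensity of the GDF15 and MIR3189 probe sets (log axis, arbitrary units) on each of the 8 arrays, by group, with the group mean and SD of the log2 values as a bar beside the points. GDF15 shows 3 separate levels, from 384.8 to 513.4 on low attachment to 929.4 and above on attachment plates, while the MIR3189 points of both low-attachment groups overlap between 35.1 and 63.7.

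The first comparison asked what differed when cells could not attach. Without FP001, GDF15 was 2.33-fold lower on low attachment than on attachment plates (log2 difference −1.22 ± 0.13, SE), and MIR3189 was 4.29-fold lower (−2.10 ± 0.22). Both differences exceeded the spread between arrays. The groups overlapped for neither gene, and the share of all genes for which this held is not given. MIR3189 had the 4th and GDF15 the 31st most negative difference of the 10916 genes tested. Of those genes 10.1% passed the threshold in either direction (limma, adjusted p under 0.05), and 26.4% had an unadjusted p under 0.05. With the replicate number as a block 12.6% passed (5.52% up, 7.07% down), though attachment arrays did not pair by number.

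The second comparison, of FP001-treated cells with those on attachment plates, varied both the plate and the additive, and it used the same 2 attachment arrays. MIR3189 was 5.36-fold lower (log2 difference −2.42 ± 0.22), again the 4th most negative of all genes tested. GDF15 was 1.37-fold lower (−0.46 ± 0.13) and ranked 986th among the 5186 genes with a negative difference. The groups overlapped for neither gene, and the share of all genes for which this held is again not given. By limma, 19.5% of genes passed the threshold in this comparison (21.7% with the block, 9.06% up and 12.6% down).

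Host and microRNA gene parted between the low-attachment groups, with and without FP001. GDF15 was 1.70-fold higher with FP001 (log2 difference 0.77 ± 0.12), the 11th largest positive difference of 10916 genes. Its groups did not overlap, and the share of all genes for which this held is not given. By limma, 0.11% of genes passed the threshold (0.0366% up, 0.0733% down) and 11.6% had an unadjusted p under 0.05. MIR3189 was 1.25-fold lower (−0.32 ± 0.19). In size this is less than the SD of 0.43 among the low-attachment arrays in normal medium and more than the 0.24 with FP001. Same-numbered arrays of these groups varied together across genes, so their differences are given too: for GDF15 they were 0.79, 0.86 and 0.65 for numbers 1, 2 and 3, and for MIR3189 −0.86, 0.16 and −0.26. The GDF15 difference was thus positive in 3 of 3 pairs, and that of MIR3189 changed sign between pairs. This comparison and the first share the low-attachment arrays in normal medium.

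The level of MIR3189 relative to GDF15 took 3 steps, although MIR3189 itself took only 2 levels. On low-attachment plates MIR3189 read only 1.48 to 2.65 times the array's median, which limits how low the ratio could read. Set to 0 at the attachment mean, the log2 ratio of MIR3189 to GDF15 was −2.21, −1.87 and −1.82 on the FP001 arrays, −0.56, −1.17 and −0.91 on the low-attachment arrays and −0.24 and 0.24 on the attachment arrays. The 3 groups did not overlap. The group means were −1.97 ± 0.21 with FP001, −0.88 ± 0.31 on low attachment and 0 ± 0.34 on attachment plates (SD, n = 3, 3 and 2). Between the low-attachment groups the ratio thus differed by −1.09 with FP001. GDF15 itself was 0.77 higher and MIR3189 differed by −0.32, beside MIR3189 SDs of 0.43 in normal medium and 0.24 with FP001.

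Agreement within groups was not used to choose the members, and it could be tested. The deviations of the genes from their group means correlated over the 8 arrays at Pearson's r = 0.476 (exact permutation of arrays within groups, two-sided p = 0.458, 72 arrangements) and Spearman's rho = 0.333 (exact permutation p = 0.597), the only relation of this kind computed. Without low-attachment replicates 2 and 3, which lay farthest from the median of GDF15, r was −0.0476 over 6 arrays. The group means for this value still included the arrays left out, so it is not fully a correlation within groups. No relation within groups was therefore detected, and 8 arrays are too few to exclude one. Leaving out those arrays also narrowed the range of GDF15. Over omissions of single arrays r ran from −0.125 to 0.693. Low-attachment replicate 2 read lowest of its group for both genes, and without it r was −0.125.

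**Figure D2:**
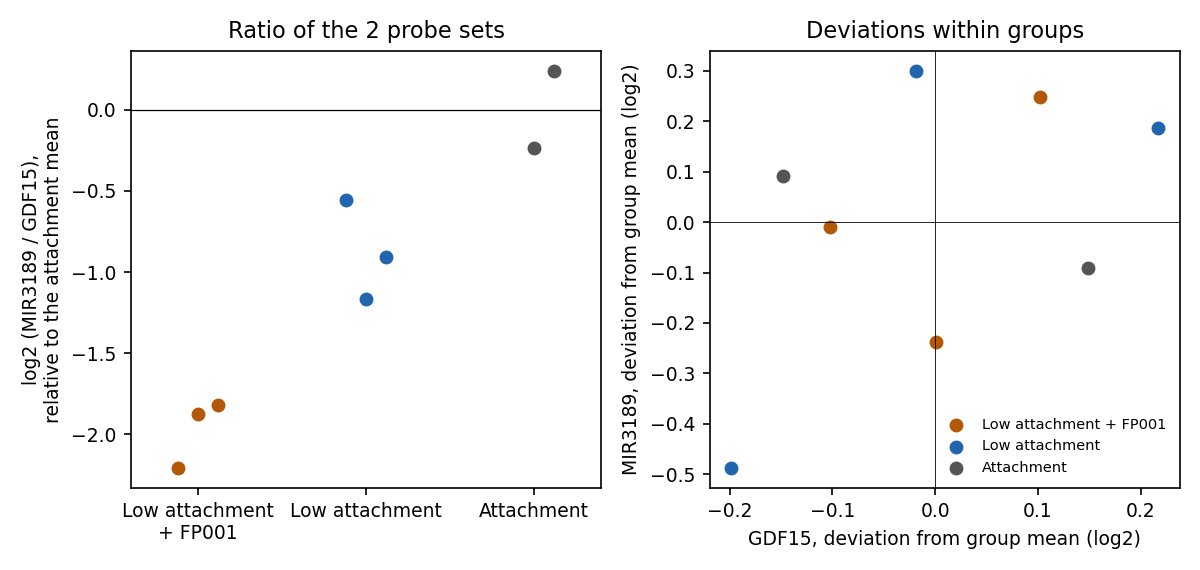
Left, log2 ratio of MIR3189 to GDF15 on each of 8 arrays relative to the attachment mean (horizontal line at 0), by group. Right, deviation of each array from its group mean (log2) for GDF15 (x axis) and MIR3189 (y axis), coloured by group. The ratios of the 3 groups do not overlap, and the deviations show no clear slope (r = 0.476, exact permutation p = 0.458).

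Other microRNA genes that lie inside a gene of the same strand were set beside this pair. Many of their probe sets were dim (array medians 23.3 to 24.1), which limits the falls they could show. They therefore do not settle how usual such a split is. Of 884 named microRNA genes in the RefSeq tables, 267 pairs with a named host were found, and 104 pairs passed the filter on dim probe sets with both partners, for 104 microRNA genes and 94 hosts. On low attachment against attachment, 3 of the 103 microRNA genes other than MIR3189 rose and 3 fell (limma, adjusted p under 0.05), a share of 5.83% against 10.1% of all genes, and their median log2 difference was 0.06. MIR3189 was the lowest of the 104 and also of all 384 microRNA genes tested. In none of the other 103 pairs did microRNA gene and host both pass the threshold (0 pairs in the same direction and 0 in opposite directions).

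The hosts of the microRNA genes that came next in this ranking differed far less than GDF15 did. MIR21, whose mature form is an abundant oncogenic microRNA, had an intensity of 133.6, 119.9 and 165.4 on low attachment and 440.1 and 412.5 on attachment plates. It fell 3.08-fold (log2 fold change −1.62 ± 0.17, limma adjusted p = 0.000612), while its host VMP1, an autophagy gene, had a log2 difference of 0.00 ± 0.07. MIR590 fell 2.21-fold (−1.14 ± 0.31, limma adjusted p = 0.0441), while its host EIF4H, a translation initiation factor, was at −0.03 ± 0.07. MIR4804 fell 1.58-fold and MIR3621 rose 1.77-fold (limma adjusted p = 0.0466 and 0.0455). The calls of MIR590, MIR4804 and MIR3621 were lost without single arrays (adjusted p up to 0.109, 0.242 and 0.303).

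With FP001 against attachment, 10 of the 103 other nested microRNA genes rose and 7 fell, a share of 16.5% beside 19.5% of all genes. MIR21 fell 5.95-fold (log2 fold change −2.57 ± 0.17, limma adjusted p = 3.16e-05), MIR590 4.50-fold (−2.17 ± 0.31, adjusted p = 0.0015) and MIR579 2.23-fold (−1.16 ± 0.18, adjusted p = 0.00237). MIR3189 lay 2nd lowest of the 104, after MIR21. MIR27B fell 2.45-fold together with its host AOPEP, an aminopeptidase, which fell 1.48-fold (limma adjusted p = 0.00928 and 0.00919), and both calls were lost without attachment replicate 2 (0.094 and 0.0756). Counting this pair, host and microRNA gene both passed in 5 of the 103 other pairs, 2 falling together, 1 rising together and 2 in opposite directions. The 2 pairs falling together shared the host AOPEP, so they rest on 1 host call.

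The mature 5p arms of the other nested microRNA genes with a fall of over 4-fold are shown because they share a seed, which neither arm of MIR3189 has. In RefSeq (GRCh38.p14) they lie at chr17:59841273-59841294 and chr7:74191213-74191234, both on the plus strand, and capitals again mark the seed.
hsa-miR-21-5p: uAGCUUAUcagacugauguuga
hsa-miR-590-5p: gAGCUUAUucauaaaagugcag
The 2 were the only mature microRNAs of that table with this seed. MIR590 was dim, with a mean intensity of 10.1 with FP001, 20.6 on low attachment and 45.5 on attachment plates, where the median of an array lay between 23.3 and 24.1.

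With FP001 against normal medium on low attachment, limma called 0 of the 103 other nested microRNA genes and 0 of the 93 other hosts. At an unadjusted p under 0.05 there were 7 microRNA genes higher and 8 lower, and 2 hosts higher and 6 lower. With the replicate number as a block, MIR21, MIR27B, MIR3127 and MIR590 were called as lower and still 0 hosts, where the count over all genes was 142 with the block (1.3%, with 0.458% up and 0.843% down), against 12 without it. The difference between microRNA gene and host was most negative for MIR3189 and GDF15 among all 104 pairs (−1.09), and the middle 90% of the other pairs ran from −0.47 to 0.46. MIR590 and MIR21 came next, where the microRNA genes themselves had log2 differences of −1.03 and −0.95 and their hosts −0.03 and 0.00. In both comparisons with attachment plates the difference of MIR3189 and GDF15 ranked 3rd, after those of MIR21 and MIR590. The pair was chosen by its levels in these groups, and many of the other microRNA probe sets were dim, so its ranks are only a description.

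**Figure D3:**
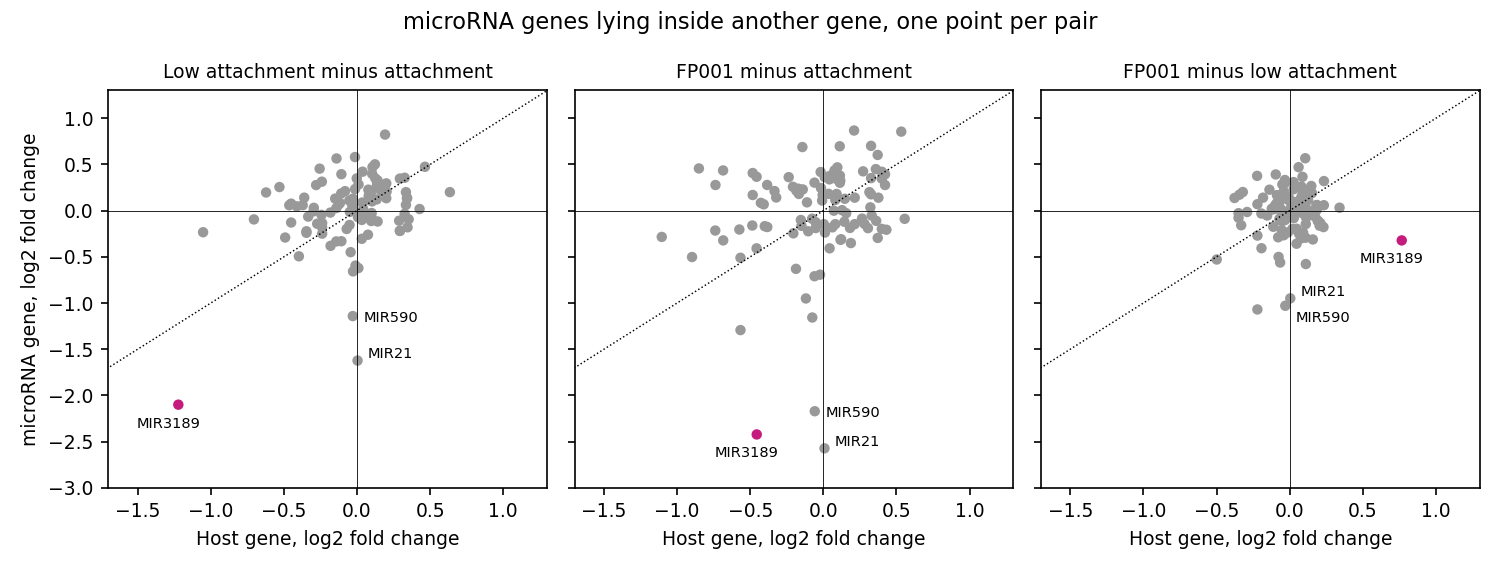
Log2 fold change of the host gene (x axis) and of the microRNA gene inside it (y axis) for 104 pairs in the 3 comparisons, with the pair of GDF15 and MIR3189 in colour and a dotted line where both are equal. MIR3189 lies at −2.10 and −2.42 in the comparisons with attachment plates, and at −0.32 with GDF15 at 0.77 between the low-attachment groups.

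The transcription factors known to act on GDF15 were followed next, by their RNA alone, so their activity was not measured. Of 24 listed, 19 were tested, and the gene of CHOP was not among these. On low attachment against attachment 1 rose and 4 fell (4.31% and 5.76% of all genes), with a list median of −0.04 beside 0.01 for all genes. EGR1, an immediate early factor, had an intensity of 71.7, 58.7 and 66.9 on low attachment, against 694.0 and 654.0 on attachment plates, and fell 10.3-fold (log2 fold change −3.36 ± 0.11, limma adjusted p = 1.21e-07). FOS and JUN, partners in the AP-1 factor, fell 3.47-fold and 3.81-fold (limma adjusted p = 0.000174 and 3.41e-05), and JUNB fell 2.27-fold (adjusted p = 0.00287).

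ATF4, the driver of the amino acid response, had a log2 difference of −0.08 ± 0.09 (limma adjusted p = 0.605), and the NF-kappaB subunit gene RELA −0.11 ± 0.09 (adjusted p = 0.463). SP1, a factor of GC-rich promoters, was at −0.01 ± 0.10 (adjusted p = 0.956). TFEB, a factor of lysosome genes, rose 1.34-fold (adjusted p = 0.0373), a call that was lost with the replicate block (0.0536) and without 6 of the 8 single arrays (up to 0.193).

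With FP001 against attachment, 1 of the 19 factors rose and 6 fell (8.08% and 11.4% of all genes), with a list median of −0.09 beside 0.02. EGR1 fell 10.0-fold, FOS 3.29-fold, JUNB 2.92-fold and JUN 2.09-fold (limma adjusted p = 1.35e-07, 0.000144, 0.000453 and 0.000598). XBP1, a factor of the unfolded protein response, fell 1.52-fold and RELA 1.27-fold (adjusted p = 0.028 and 0.021), while TFEB rose 1.36-fold (0.0209). XBP1, RELA and TFEB were each lost without single arrays (adjusted p up to 0.244, 0.171 and 0.129), and 4 factors were called without attachment replicate 2 or FP001 replicate 2.

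Between the low-attachment groups, where 0.11% of all genes were called, JUN was the 1 factor called. Its intensity was 102.8, 108.3 and 92.4 with FP001 and 58.3, 48.9 and 59.5 in normal medium, and it rose 1.82-fold (log2 fold change 0.87 ± 0.11, limma adjusted p = 0.0212). The group means of JUN and GDF15 stood in the same order over the 3 groups, with attachment highest and low attachment in normal medium lowest. The means of EGR1, FOS, FOSL1 and ATF4 had that order too, but limma called none of these between the low-attachment groups. EGR1 had an intensity of 65.8, 63.2 and 72.7 with FP001 and a log2 difference of 0.03 ± 0.10 between these groups (limma adjusted p = 0.926). The JUN call was lost without a trend in the spread (0.0577) and without 5 of the 6 single low-attachment arrays, FP001 or normal medium (0.0638 to 0.155). With the replicate block XBP1 was called too, as lower (adjusted p = 0.03).

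**Figure D4:**
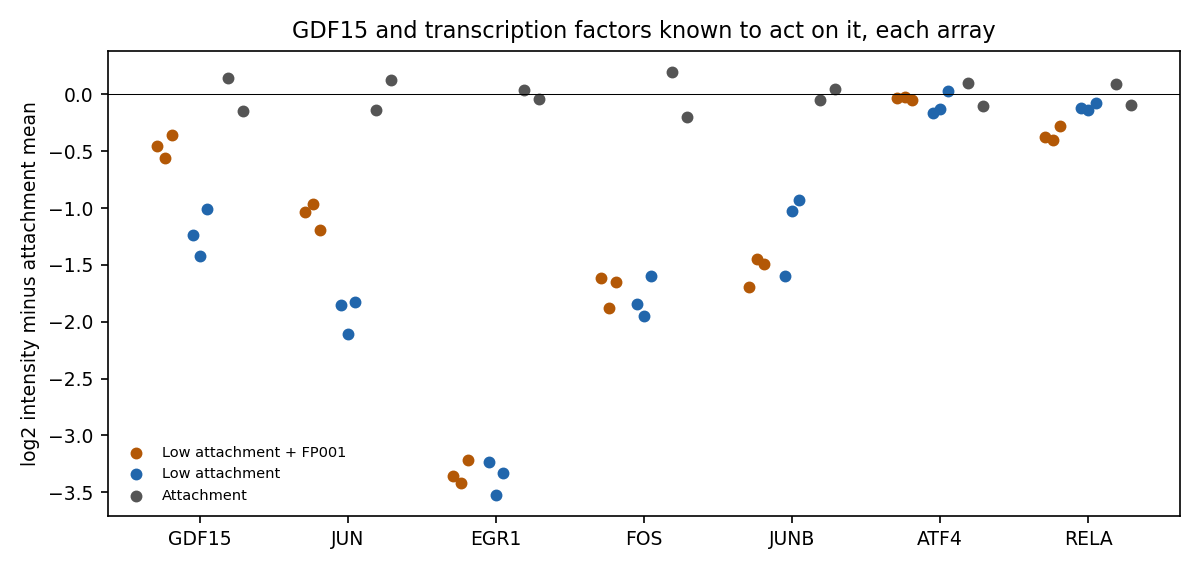
Log2 intensity of GDF15 and 6 transcription factor genes on each of 8 arrays, relative to the attachment mean of the gene, coloured by group. JUN, like GDF15, lies higher with FP001 than in normal medium on low attachment, while EGR1 lies more than 3 below the attachment mean in both low-attachment groups.

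The GDF15 promoter is shown because such factors are known to act there. Whether MIR3189 is transcribed from it in these cells was not tested. It is the stretch from 250 bases before to 50 after the start in RefSeq (GRCh38.p14), at chr19:18385908-18386207 on the plus strand, and capitals mark the motifs found.
GDF15 promoter: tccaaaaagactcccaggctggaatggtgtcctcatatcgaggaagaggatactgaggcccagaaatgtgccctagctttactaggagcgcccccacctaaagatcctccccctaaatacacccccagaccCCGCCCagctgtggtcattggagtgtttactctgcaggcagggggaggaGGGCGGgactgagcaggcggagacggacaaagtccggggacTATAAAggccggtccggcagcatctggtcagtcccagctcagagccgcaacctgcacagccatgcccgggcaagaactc
The letters GGGCGG, known to bind SP1 and KLF factors, occurred at 2 places on either strand, starting 119 and 70 bases before the start, and 45.0% of 35116 RefSeq promoters of this length held them. TATAAA had 1 match, 29 bases before the start, and 11.5% of promoters held it. GCGNGGGCG (EGR1, in 9.43% of promoters), TGANTCA (AP-1, in 7.71%) and TGATGNAA (ATF4, in 3.62%) had 0 matches on either strand in this window, which says nothing about sites outside it.

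Some genes of the ATF4 and CHOP response were lower on low-attachment plates. Of 36 listed 19 were tested, and 0 rose and 7 fell on low attachment against attachment, with a list median of −0.28 beside 0.01 for all genes, of which 4.31% rose and 5.76% fell. The other 12 did not pass. The lipoprotein receptor gene VLDLR fell 2.00-fold (limma adjusted p = 0.000427), the serine synthesis genes PHGDH and PSPH 1.78-fold and 1.64-fold (adjusted p = 0.00891 and 0.00289), and CTH, of cysteine synthesis, 1.61-fold (adjusted p = 0.00672). PHGDH and CTH were lost without attachment replicate 2 (adjusted p = 0.073 and 0.0759), and PHGDH also without attachment replicate 3 (0.0605). Without attachment replicate 2 the list had 2 calls.

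With FP001 against attachment 1 of the 19 ATF4 and CHOP response genes rose and 10 fell (8.08% and 11.4% of all genes), with a list median of −0.46. VLDLR fell 2.18-fold, CTH 1.90-fold, the secreted glycoprotein gene STC2 1.81-fold and DDIT4, an inhibitor of mTORC1, 1.55-fold (limma adjusted p = 0.000144, 0.000954, 0.00207 and 0.00931). DDIT4 was lost without attachment replicate 2 (0.102), where the list had 3 calls, and the count was 7 without FP001 replicate 1. Between the low-attachment groups limma called 0 of 19, with 0 higher and 4 lower at an unadjusted p under 0.05, and with the replicate block DDIT4 was called as lower (log2 difference −0.40 ± 0.12, adjusted p = 0.0399), opposite in sign to GDF15.

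**Figure D5:**
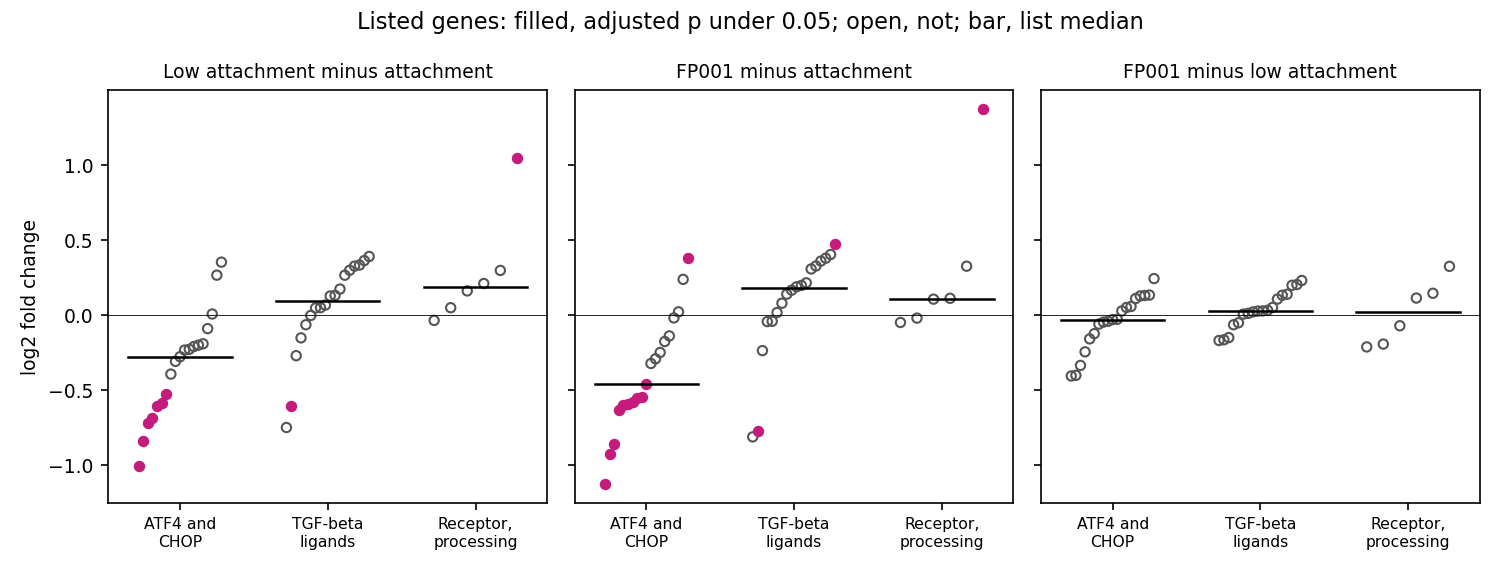
Log2 fold change of the tested genes of 3 lists in the 3 comparisons, filled where the adjusted p was under 0.05, with the list median as a bar. The ATF4 and CHOP list has a median of −0.28 on low attachment against attachment, and −0.03 between the low-attachment groups.

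Among the relatives of GDF15, 18 of 33 other ligands of the TGF-beta superfamily were tested. On low attachment against attachment 0 rose and 1 fell, beside 4.31% and 5.76% of all genes. The 1 was BMP4, a signal of lung and gut development, which fell 1.52-fold (log2 fold change −0.61 ± 0.15, limma adjusted p = 0.0305). With FP001 against attachment BMP4 fell 1.70-fold (adjusted p = 0.00731) and NODAL, an embryonic patterning signal, rose 1.39-fold (adjusted p = 0.0459). Of all genes 8.08% rose and 11.4% fell in that comparison. NODAL was lost with the replicate block (0.088), without a filter (0.0513) and without 6 of the 8 single arrays (up to 0.25), and BMP4 without attachment replicate 2 (0.25 on low attachment and 0.0833 with FP001) and, on low attachment, without low-attachment replicates 2 or 3 (0.0838 and 0.066). Leaving out single arrays gave 0 to 4 calls of this list with FP001. With the block BMP2, another bone morphogenetic protein, was called as lower in both comparisons (adjusted p = 0.00632 on low attachment and 0.00301 with FP001). Without the block limma did not call BMP2 (adjusted p = 0.128 and 0.0711). Attachment arrays did not pair by number, which limits these block calls. Between the low-attachment groups limma called 0 of 18, with 0 at an unadjusted p under 0.05. The list median stayed between 0.03 and 0.18 in the 3 comparisons.

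Of 9 genes for the receptor and for proprotein convertases, which cut such precursors into mature ligands, 6 were tested. PCSK5, a convertase of the secretory pathway, had an intensity of 64.9, 99.7 and 95.4 with FP001, 62.5, 76.8 and 65.2 on low attachment and 32.02 and 33.66 on attachment plates. It rose 2.59-fold with FP001 (log2 fold change 1.37 ± 0.17, limma adjusted p = 0.000847) and 2.07-fold in normal medium (1.05 ± 0.17, adjusted p = 0.00506) against attachment plates. It was the 1 gene of this list called in either comparison, where 19.5% (FP001) and 10.1% (normal medium) of all genes were called. The call in normal medium was at 0.0507 without attachment replicate 2. FURIN, the broadly expressed convertase, had log2 differences of 0.11 ± 0.09 with FP001 and 0.30 ± 0.09 in normal medium (adjusted p = 0.44 and 0.0719). RET, the signalling partner of GFRAL, had mean intensities of 25.0 with FP001, 23.1 on low attachment and 19.9 on attachment plates, close to the array median. Between the low-attachment groups limma called 0 of 6, with 0 higher and 1 lower at an unadjusted p under 0.05.

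Of the genes that cut or carry microRNA precursors, DGCR8, XPO5 and TARBP2 were tested, 3 of 11 listed, and limma called 0 in each comparison (1 in each comparison with attachment plates after quantile normalization, and 0 at an unadjusted p under 0.05 between the low-attachment groups). Against attachment plates 10.1% of all genes were called in normal medium and 19.5% with FP001. XPO5, which exports precursor hairpins, had log2 differences of −0.33 ± 0.13 in both comparisons with attachment plates (adjusted p = 0.109 with FP001 and 0.153 in normal medium). ARHGEF25, a guanine nucleotide exchange factor reported elsewhere as a target of miR-3189-3p, fell with FP001 against attachment (log2 fold change −0.59 ± 0.12, limma adjusted p = 0.00799, and 0.091 without attachment replicate 2). It had log2 differences of −0.38 ± 0.12 in normal medium against attachment (adjusted p = 0.0659) and −0.20 ± 0.11 between the low-attachment groups (adjusted p = 0.495).

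The named and tested genes nearest to GDF15 on chromosome 19 were IQCN, JUND and MIR3188 before it and SSBP4, ISYNA1 and ELL after it. Of these 6, ISYNA1, the inositol phosphate synthase, was called on low attachment against attachment (log2 fold change −0.48 ± 0.12, limma adjusted p = 0.0294), and JUND, an AP-1 gene, was called with FP001 against attachment (0.38 ± 0.12, adjusted p = 0.0422). Over all genes 10.1% were called on low attachment and 19.5% with FP001, each against attachment. ISYNA1 was lost without attachment replicate 2 (0.236) or low-attachment replicate 1 or 2 (0.0717 and 0.0561), and JUND without 6 of the 8 single arrays (up to 0.182), with median scaling (0.0521) and without a trend (0.0572). MIR3188, the microRNA gene beside JUND, had log2 differences of 0.02 ± 0.22 on low attachment and 0.26 ± 0.22 with FP001 against attachment (adjusted p = 0.972 and 0.433). Between the low-attachment groups limma called 0 of the 6, and JUND was called as higher with the replicate block (adjusted p = 0.0399).

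Likeness was measured as Pearson's r of log2 intensity over the 8 arrays, which mostly reflects the order of the 3 groups. Among the other 10915 genes tested, BDKRB2 (bradykinin B2 receptor), DUSP4 (a MAP kinase phosphatase), TRMT10C (a mitochondrial tRNA methyltransferase), the small non-coding RNA gene SNAR-B1 and TRIM69 (a ubiquitin ligase) were most like GDF15, with r from 0.932 to 0.954. SNAR-B1 had mean intensities of 3720 with FP001, 2241 on low attachment and 4248 on attachment plates, but it belongs to a family of near-identical copies that a probe set may not tell apart. MIR3189 ranked only 960th for GDF15 (r = 0.625). Most like MIR3189 were ZNF449 (a zinc finger gene), FZD2 (a Wnt receptor), NUP133 (a nucleoporin), PRP4K (a splicing-related kinase) and CCNL2 (cyclin L2), with r from 0.974 to 0.985, and GDF15 ranked 2131st.

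The labelled cell type was checked against epithelial markers. KRT18, a keratin of simple epithelia, had mean intensities of 4422 with FP001, 3724 on low attachment and 3590 on attachment plates, and the alveolar marker genes SFTPC, SFTPB and NKX2-1 lay between 21.6 and 40.4 in all groups, near the array median. Of 14 epithelial and A549 markers 7 were tested. Their summed intensity was 5118 to 5700 with FP001, 4411 to 4775 on low attachment and 4174 to 4311 on attachment plates. KRT18 made up most of this sum, so it adds little to the KRT18 values. Against attachment, 19.5% of all genes were called with FP001 and 10.1% on low attachment. KRT18 and KRT19 rose and EPCAM fell with FP001 against attachment, and KRT19 rose on low attachment (limma adjusted p = 0.00917, 0.00135, 0.042 and 0.0158). Of these calls KRT19 with FP001 held without any 1 array. Of 7 leukocyte markers 3 were tested (CD14, CD68 and LYZ). Their summed intensity was 621.9 to 953.5 with FP001, 557.0 to 789.3 on low attachment and 423.6 to 502.9 on attachment plates. CD68 made up most of it. LYZ was called as higher in both comparisons with attachment (limma adjusted p = 0.00414 on low attachment and 0.00124 with FP001), and CD68 with FP001 (0.0146). CD68 was lost without either attachment array (0.0645 and 0.0922). With FP001 against normal medium on low attachment limma called 0 markers, with 2 epithelial markers higher and 1 lower at an unadjusted p under 0.05, and with the replicate block 2 epithelial markers were called as higher. LUM and CLDN5 were the only fibroblast and endothelial markers tested, and neither was called, except CLDN5 as higher with FP001 against attachment with the replicate block (adjusted p = 0.046). With the block CD68 was also called as higher on low attachment (0.0431). Attachment arrays did not pair by number, which limits both block calls. What part the marker differences had in the levels of GDF15 and MIR3189 was not tested. In bulk RNA, fewer cells with a transcript and less of it per cell cannot be told apart.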

How the data were processed

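Per the submitters' processing notes, the authors made the deposited intensities, linear in scale, with MAS5, whose version and settings no source used here gives. The labels' protocols name a 3' in vitro transcription kit for the biotinylated cRNA. Sample titles gave the group and replicate number of each array. Gene names are those of GEO's platform table (37519 probe sets unnamed, 0 with several symbols), and all 16098 named probe sets matched a RefSeq gene by identifier.

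The log2 of the deposited intensity was used without further normalization. Probe sets at or above the median of their array on 3 or more of 8 arrays were kept, and the brightest stood for its gene, which left 10916 genes. A gene high on the 2 attachment arrays alone could thus be dropped. One limma model (limma 3.58.1, R 4.3.3; lmFit, eBayes with trend) held all 3 groups. Tests were two-sided with Benjamini-Hochberg adjustment over all genes, called at 0.05. The fit was tested on simulated data. Correlations and their exact permutations used Python 3.11.15. Alternatives were quantile normalization, median scaling, a pseudocount of 16, other filters, no trend, the replicate block, all 9 arrays and omission of each array.

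The members and gene lists were chosen with earlier results of these data known. The naming rule took, per list and comparison, up to 4 called members with the largest change or else its brightest member, any tested regulator of GDF15, the 5 genes most like each member, 3 tested genes on either side, and the 5 nested microRNA genes with the largest change and their hosts. The counts over listed genes include a list that is not reported here. BMP2, RET, MIR3127 and single markers were named after their values were seen.

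Same-numbered arrays with and without FP001 deviated together (r = 0.483, 0.309 and 0.231 across genes for numbers 1, 2 and 3), so their numbers were taken to pair the samples. Attachment arrays showed no such pairing (−0.205 and 0.138 with low attachment and −0.256 and 0.0076 with FP001, for numbers 2 and 3). In comparisons with attachment the replicate block thus rests on numbers that did not pair. The number of arrays limits the precision.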

Additional observations from a re-analysis of the deposited data

How the results depend on the processing

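The directions of the members' differences held under quantile normalization, median scaling, the replicate block and the omission of any 1 of the 8 arrays. Over those omissions the log2 difference of GDF15 ran from −1.37 to −1.07 (low attachment minus attachment), −0.60 to −0.31 (FP001 minus attachment) and 0.67 to 0.88 (FP001 minus low attachment), and that of MIR3189 from −2.25 to −1.86, −2.55 to −2.30 and −0.57 to −0.17. MIR3189 minus GDF15 ran from −1.12 to −0.64, −2.21 to −1.73 and −1.23 to −0.93, and the correlation within groups from −0.125 to 0.693. A pseudocount of 16 turned the difference of MIR3189 with FP001 against attachment to −2.05 and that relative to GDF15 to −1.60.

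With the paired fit, the replicate block, 142 genes were called between the low-attachment groups, against 12, and 3 listed genes, against 1. Without trend in the spread both counts were 0. The omissions gave 362 to 1301, 660 to 2305 and 0 to 11 genes called in the 3 comparisons, and 7 to 22, 9 to 32 and 0 to 1 listed genes. In the first the count was 362 and 449 without attachment replicates 2 and 3, and 719 without low-attachment replicate 3. In the second it was 660 and 1106 without attachment replicates 2 and 3, and 1278 and 1335 without FP001 replicates 1 and 2. Quantile normalization gave 612 up and 512 down in the first comparison, against 471 and 629, and 1241 up and 968 down in the second, against 882 and 1244.

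With attachment replicate 1 included, limma called 0 genes in every comparison and so 0 listed genes, the median of all genes moved to 0.70 and 0.69 against attachment, and the correlation within groups was 0.975. GDF15 then stood at −0.61 and 0.16 against attachment, on low attachment and with FP001, MIR3189 at −0.0094 and −0.33, and MIR3189 minus GDF15 at 0.60 and −0.49. The signs of other genes also turned, on low attachment for BMP4 (0.0897), CTH (0.76), JUNB (0.18), PSPH (1.67) and VLDLR (0.55), and with FP001 for AOPEP (0.91), ARHGEF25 (0.73), CTH (0.51), DDIT4 (1.71), JUN (0.40), MIR27B (0.11), RELA (0.84), VLDLR (0.43) and XBP1 (0.28). On that array GDF15 read 286.5 and MIR3189 2.87. The cause of that array's departure was not tested.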
